A study of Mus musculus with 13 samples.

Results

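T-box genes encode transcription factors that share a DNA-binding domain, and 7 of them were followed here over presumptive disc and vertebra: Tbx1, Tbx15 and Tbx18 of the Tbx1 subfamily, and Tbx2, Tbx3, Tbx4 and Tbx5 of the Tbx2 subfamily. All probe sets whose gene symbol was exactly one of these names were taken, which gave 15 probe sets of 7 genes out of 18193 genes named by 1 symbol on the array. Tbx1 was selected on its measured values, being higher in mutant than in control disc, so its values in that comparison are a description and carry no test. The other 6 genes were added as members of the family. Tbx1 and Tbx2 had 1 probe set each, Tbx3 had 5, and Tbx4, Tbx5, Tbx15 and Tbx18 had 2 each.

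Members of the family act as activators or repressors and often set regional identity in mesoderm. Tbx1 is known from the pharyngeal region and from the human DiGeorge syndrome. Tbx18 is expressed in the anterior compartment of the somite, where it helps to keep the anterior and posterior compartments of a segment apart, and Tbx15 acts with it in the developing skeleton. Tbx2 and Tbx3 are repressors, while Tbx5 and Tbx4 are known for the initiation of forelimb and hindlimb. The disc and the vertebra both arise from sclerotome, the ventral part of the somite.

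RNA was obtained by laser capture of lumbar tissue from mouse embryos at E13.5, with 3 arrays of control intervertebral disc (IVD), 3 of control vertebrae, 4 of mutant IVD and 3 of mutant vertebrae. Controls were labelled Cre-;Tgfbr2lox/wt, and therefore carried 1 floxed allele of Tgfbr2, the type II TGF-β receptor, and no Cre. Mutant IVD was labelled Cre+;Tgfbr2lox/lox, and mutant vertebrae carried the same genotype label with the gene spelled Tgrbr2. Cre was driven by the Col2a promoter, which limits deletion to cells in which that promoter has been active, and the captured disc was mostly presumptive annulus fibrosus. The arrays of a group are described as biological replicates, with tissue taken from several embryos of each genotype, and both control tissues came from 1 set of mice.

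Each value is the log2 signal of a probe set relative to its own median over the 13 arrays. A value of 0 therefore marks the middle array and not absence, signal over background is unknown, and the values cannot be compared between genes. In bulk tissue fewer cells of a type and less RNA per cell cannot be told apart.

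The tissue labels were set beside markers. Of 12 fibrous disc genes, 11 had higher values in disc than in vertebrae of controls (median difference 1.22) and 11 were higher in mutant IVD than in mutant vertebrae (median 1.22). Of 10 cartilage genes, 9 and 10 were lower in these comparisons (medians -0.79 and -1.18). Of all genes, 47.8% and 50.1% were higher. The authors listed Fmod, Col6a1, Col14a1, Adamtsl2, Ogn, Aspn, Lsamp and Pax1 as disc enriched and Sox9 as vertebrae enriched, from these control arrays. The counts in controls were therefore in part fixed in advance and do not check the labels there. Mutant IVD 3 went against its label, with a fibrous disc mean of -1.28 where the other mutant IVD arrays were at 0.42 to 1.13. Liver transcripts were high in control vertebrae 1, control IVD 1, mutant IVD 3 and mutant IVD 4 (means of 9 genes of 2.51 to 4.87, against at most 0.28 elsewhere). Among the 9 genes was Trh, which a synonym match put in place of the liver gene Trf and which is not a liver marker. Neuronal transcripts were high in control vertebrae 3 and mutant IVD 3 (2.35 and 3.01). In mutant vertebrae 1, 16.0% of probe sets lay more than 1 from their median, against 1.56% to 4.63% in the other arrays. All 6 control arrays, mutant vertebrae 3 and mutant IVD 3 had low Y-linked transcripts, and the other 5 mutant arrays had high ones, so sex moved in part with genotype. The 3 probe sets of Tgfbr2 differed between mutant and control IVD by 0.25, -0.02 and 0.10, and by 0.13, -0.01 and -0.84 (SE 0.51 for the last) in vertebrae. Where they lie relative to the floxed exon was not analysed here.

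Tbx1 was lowest in control disc and lay above it in both mutant tissues. In control IVD its values were -0.953, -1.307 and -1.002, the 3 lowest of all 13 arrays. In control vertebrae they were -0.52, 0.00 and -0.52. In mutant vertebrae they were 0.44, 0.45 and 0.15, and all 3 arrays lay above all control arrays. In mutant IVD they were 0.41, -0.80, 0.21 and 0.39, so that mutant IVD 1, 3 and 4 lay within the range of mutant vertebrae and mutant IVD 2 lay near the control discs. The order of group means was control IVD (-1.09 ± 0.19, SD, n = 3), control vertebrae (-0.35 ± 0.30, n = 3), mutant IVD (0.05 ± 0.57, n = 4) and mutant vertebrae (0.35 ± 0.17, n = 3). The gap from control IVD to control vertebrae, 0.74, was larger than either SD. The next 2 gaps, 0.40 and 0.30, were smaller than the SD of mutant IVD. Control IVD and mutant IVD are the groups on which Tbx1 was picked, so this order and its gaps are a description.

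**Figure D1:**
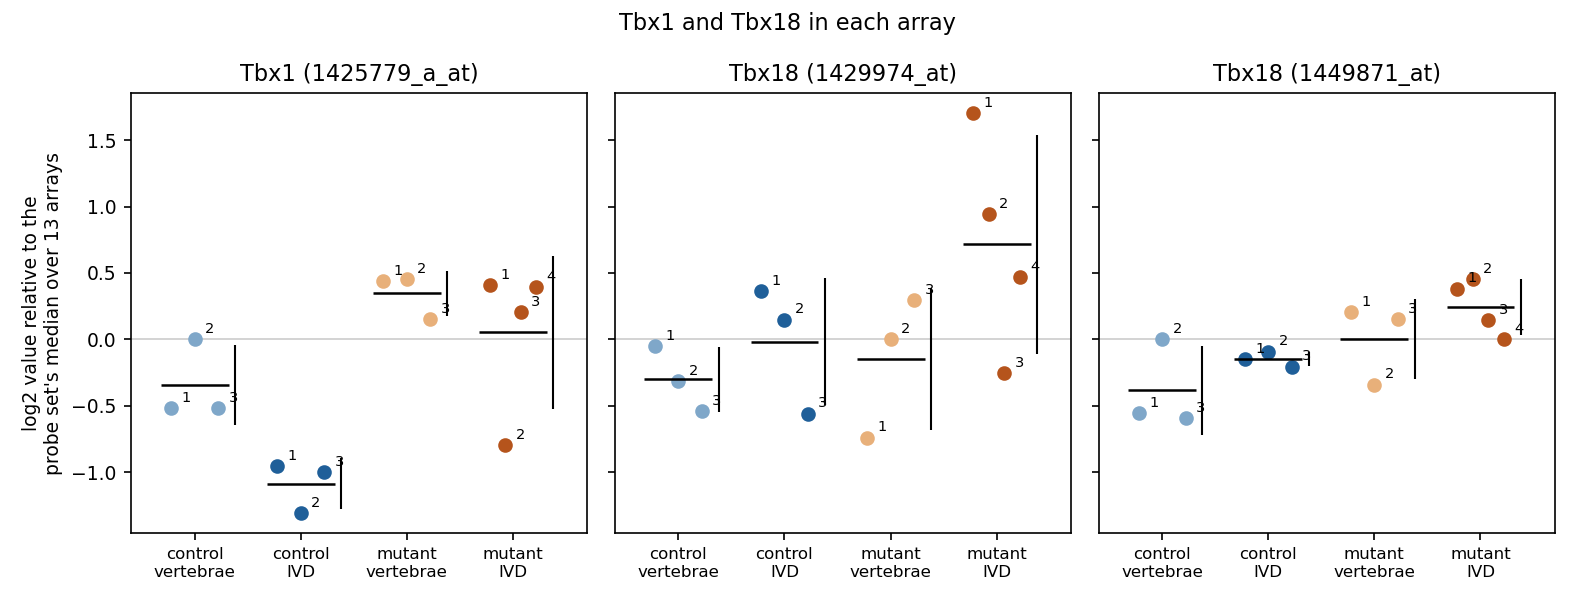
Log2 value of the Tbx1 probe set and both Tbx18 probe sets in each of 13 arrays, relative to the probe set's median. Points are arrays with their replicate number, horizontal lines are group means and vertical lines are ±1 SD. Tbx1 is lowest in the 3 control IVD arrays (-1.31 to -0.95), and Tbx18 reaches 1.70 in mutant IVD 1.

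Between mutant and control IVD, the comparison on which Tbx1 was chosen, the difference was 1.14 (SE 0.28), or 2.20-fold, and all 4 mutant arrays lay above all 3 control arrays. Of all probe sets, 3.68% had mutant IVD above control IVD without overlap. Nothing is read from this count, since the gene was selected for it.

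Mutant and control vertebrae share no array with that comparison. Both control tissues came from 1 set of mice, however, so the 2 comparisons are not independent. Between vertebrae Tbx1 was higher in mutants by 0.69 (SE 0.29, 95% interval 0.05 to 1.34), or 1.62-fold. The adjusted p in limma was 0.998, so Tbx1 did not pass over all probe sets. The interval left out 0 here but included it in 8 of 24 alternatives: without control vertebrae 1 (difference 0.61), without control vertebrae 3 (0.60), without mutant vertebrae 1 (0.65), without mutant vertebrae 2 (0.64), without the arrays with liver (0.61) or neuronal (0.60) transcripts, with Y-linked genes as a covariate (0.71) and with array weights (0.54). The groups did not overlap, as was so for 3.63% of all probe sets in that direction. Control IVD was below control vertebrae by 0.74 (SE 0.29, 95% interval -1.38 to -0.10; limma, adjusted p = 1), again without overlap, as for 3.90% of all probe sets. This interval included 0 in 3 of 26 alternatives, without control vertebrae 2 (-0.57), without control IVD 2 (-0.63) and without the arrays with liver transcripts (-0.89). Control IVD is also 1 of the groups on which Tbx1 was picked. Between control arrays of the same number the difference was -0.44, -1.31 and -0.48. Since the 2 groups did not overlap, any pairing of their arrays gives lower values in disc, so the pairs add no support. Mutant IVD and mutant vertebrae differed by -0.30 (95% interval -0.90 to 0.31, adjusted p in limma 0.811). Mutant IVD is likewise a group on which Tbx1 was picked, for high values, so this interval is not free of that choice. The difference in effect between tissues was 0.45 (SE 0.40), which was not tested because the chosen comparison is part of it.

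Sex moved in part with genotype, while arrays with liver or neuronal transcripts were found in both genotypes. Beyond the values given here, the part of these features in the Tbx1 differences was not tested. With Y-linked genes as a covariate the difference between mutant and control IVD was 1.16, and without the 4 arrays with liver transcripts it was 0.96. Without mutant IVD 3 it was 1.09, and without mutant IVD 2 it was 1.42.

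For reference, the promoters of the 2 members with the largest differences between mutant and control IVD are printed from RefSeq on build GRCm38.p6, each 250 bases before to 50 after a start site and read 5′ to 3′ on the minus strand. Capitals mark CAGAC or its reverse complement GTCTG, the core of Smad binding sites, Smads being the transcription factors downstream of the TGF-β receptors. RefSeq promoters were found for 3 of the 7 members.
Tbx1, start 1 (chr16:18588850-18589149): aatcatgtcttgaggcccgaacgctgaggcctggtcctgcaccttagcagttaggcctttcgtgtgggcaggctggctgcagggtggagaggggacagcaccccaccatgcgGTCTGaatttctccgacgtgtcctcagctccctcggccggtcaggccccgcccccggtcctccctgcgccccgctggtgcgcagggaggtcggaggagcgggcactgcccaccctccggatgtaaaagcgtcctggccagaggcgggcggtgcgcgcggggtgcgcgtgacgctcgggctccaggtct
Tbx1, start 2 (chr16:18590622-18590921): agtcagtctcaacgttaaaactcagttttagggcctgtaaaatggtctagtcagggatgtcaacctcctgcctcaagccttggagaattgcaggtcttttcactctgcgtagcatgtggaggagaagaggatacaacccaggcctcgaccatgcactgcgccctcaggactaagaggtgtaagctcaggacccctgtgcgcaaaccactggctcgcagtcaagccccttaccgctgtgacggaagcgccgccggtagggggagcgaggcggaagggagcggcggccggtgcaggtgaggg
Tbx18 (chr9:87731211-87731510): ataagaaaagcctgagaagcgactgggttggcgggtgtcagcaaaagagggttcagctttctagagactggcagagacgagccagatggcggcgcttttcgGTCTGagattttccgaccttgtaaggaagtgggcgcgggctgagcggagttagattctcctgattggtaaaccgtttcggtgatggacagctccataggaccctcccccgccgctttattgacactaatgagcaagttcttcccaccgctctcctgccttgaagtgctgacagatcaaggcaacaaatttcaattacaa
The core was present 1 time at the first Tbx1 start and 1 time at Tbx18, and not at the other Tbx1 start or at Tbx4. It is found in 49.6% of 32851 promoters of the same length on either strand. Neither the T-box half-site GGTGTGA (3.98% of promoters) nor the forkhead motif TGTTTAC (3.65%), each searched on both strands, was in any of the 4 windows. GC content was 69% at the first Tbx1 start and 51.7% at Tbx18, against a median of 52.7%. A match of letters is not a bound site.

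Tbx18 had the next largest difference between mutant and control disc, and it did not pass the test. Its more variable probe set, 1429974_at, read 1.70, 0.95, -0.26 and 0.47 in mutant IVD. Control IVD was at 0.36, 0.15 and -0.56, control vertebrae at -0.05, -0.31 and -0.54, and mutant vertebrae at -0.74, 0.00 and 0.30. Mutant IVD 1, 2 and 4 lay above all arrays of the other groups, while mutant IVD 3, the array with vertebra-like markers and neuronal transcripts, lay within them. The difference between mutant and control IVD was 0.73 (SE 0.41, 95% interval -0.16 to 1.62; limma, adjusted p = 1). Between mutant IVD and mutant vertebrae it was 0.86 (SE 0.41, 95% interval -0.03 to 1.76; limma, adjusted p = 0.635).

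The second probe set, 1449871_at, is added because its values were seen not to overlap. It read 0.38, 0.45, 0.15 and 0.00 in mutant IVD and -0.15, -0.09 and -0.21 in control IVD, a difference of 0.39 (SE 0.20; limma, adjusted p = 1), where 3.68% of all probe sets did not overlap in that direction. With both probe sets averaged, Tbx18 differed by 0.56 (SE 0.25; limma, adjusted p = 0.9999) from control IVD and by 0.55 (SE 0.25; limma, adjusted p = 0.610) from mutant vertebrae. Both were among the differences with an unadjusted p under 0.05, as were those of 3.01% and 8.09% of all genes. The size depended on single arrays. Between mutant and control IVD 1429974_at differed by 1.53 without the 4 arrays with liver transcripts, by 1.06 without mutant IVD 3, by 0.40 without mutant IVD 1, by 0.46 without control IVD 3 and by 0.35 with Y-linked genes as a covariate, and the adjusted p over all alternatives was at least 0.699. Against mutant vertebrae it differed by 1.47 without the arrays with liver transcripts, 0.57 without mutant vertebrae 1 and 0.53 without mutant IVD 1.

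Tbx15, which acts with Tbx18 in the girdle skeleton, varied little. Its probe set 1418755_at was at -0.21, 0.15 and -0.03 in control vertebrae, 0.00, -0.03 and 0.36 in control IVD, 0.52, -0.08 and 0.08 in mutant vertebrae, and -0.07, 0.24, -0.26 and 0.68 in mutant IVD. All groups overlapped. Mutant and control IVD differed by 0.04 (95% interval -0.47 to 0.55). The second probe set had an SD of 0.14 over the 13 arrays, smaller than that of all but 4.02% of probe sets.

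The limb genes Tbx4 and Tbx5 also overlapped in the discs of both genotypes. Tbx4 1456033_at was at 0.24, -0.16 and -0.10 in control vertebrae, 0.09, 0.51 and -0.43 in control IVD, 0.16, 0.12 and -0.31 in mutant vertebrae, and 0.36, -0.07, -0.06 and 0.00 in mutant IVD. The means of mutant and control IVD were both 0.06 (95% interval of the difference -0.49 to 0.49). The other Tbx4 probe set, 1426321_at, differed by -0.28 (95% interval -0.64 to 0.09), and the Tbx4 probe sets correlated with r = 0.06 over the 13 arrays.

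Tbx5 1425695_at was at -0.06, -0.11 and 0.00 in control vertebrae, 0.62, -0.16 and 0.11 in control IVD, 0.32, 0.15 and -0.35 in mutant vertebrae, and -0.50, -0.05, 0.02 and 0.93 in mutant IVD. Its highest values were in mutant IVD 4 and control IVD 1, which also had the highest means of 10 skeletal muscle genes, 2.25 and 1.86 against at most 0.49 elsewhere. Their part in the Tbx5 values was not tested. The difference between mutant and control IVD was -0.09 (95% interval -0.75 to 0.57). The second Tbx5 probe set, 1425694_at, lay lower in all control IVD arrays (-0.11 to -0.01) than in all control vertebrae arrays (0.00 to 0.16), with a difference of -0.10 (95% interval -0.43 to 0.23), as 3.90% of all probe sets did.

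Tbx2 and 1 of the 5 Tbx3 probe sets, 1448029_at, had the widest spread within groups among the 15 probe sets (pooled SD 1.003 and 0.82), while the other Tbx3 probe sets were at 0.32 to 0.45. Tbx2 was at 0.04, -0.45 and 2.22 in control vertebrae, 1.22, -0.60 and -0.37 in control IVD, 0.28, -0.18 and 0.82 in mutant vertebrae, and 0.00, -0.45, -0.33 and 1.54 in mutant IVD. Each group held high and low arrays, and the SD over the 13 arrays, 0.89, exceeded that of 96.2% of probe sets. Control IVD minus control vertebrae was -0.52 (SE 0.72, 95% interval -2.09 to 1.05), which turned to 0.29 without control vertebrae 3. Mutant and control IVD differed by 0.11 (95% interval -1.36 to 1.58). Control vertebrae 3 had neuronal transcripts, and control IVD 1 and mutant IVD 4 muscle and liver transcripts. Mutant IVD 3, with the highest neuronal mean, was low in Tbx2, at -0.33.

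**Figure D2:**
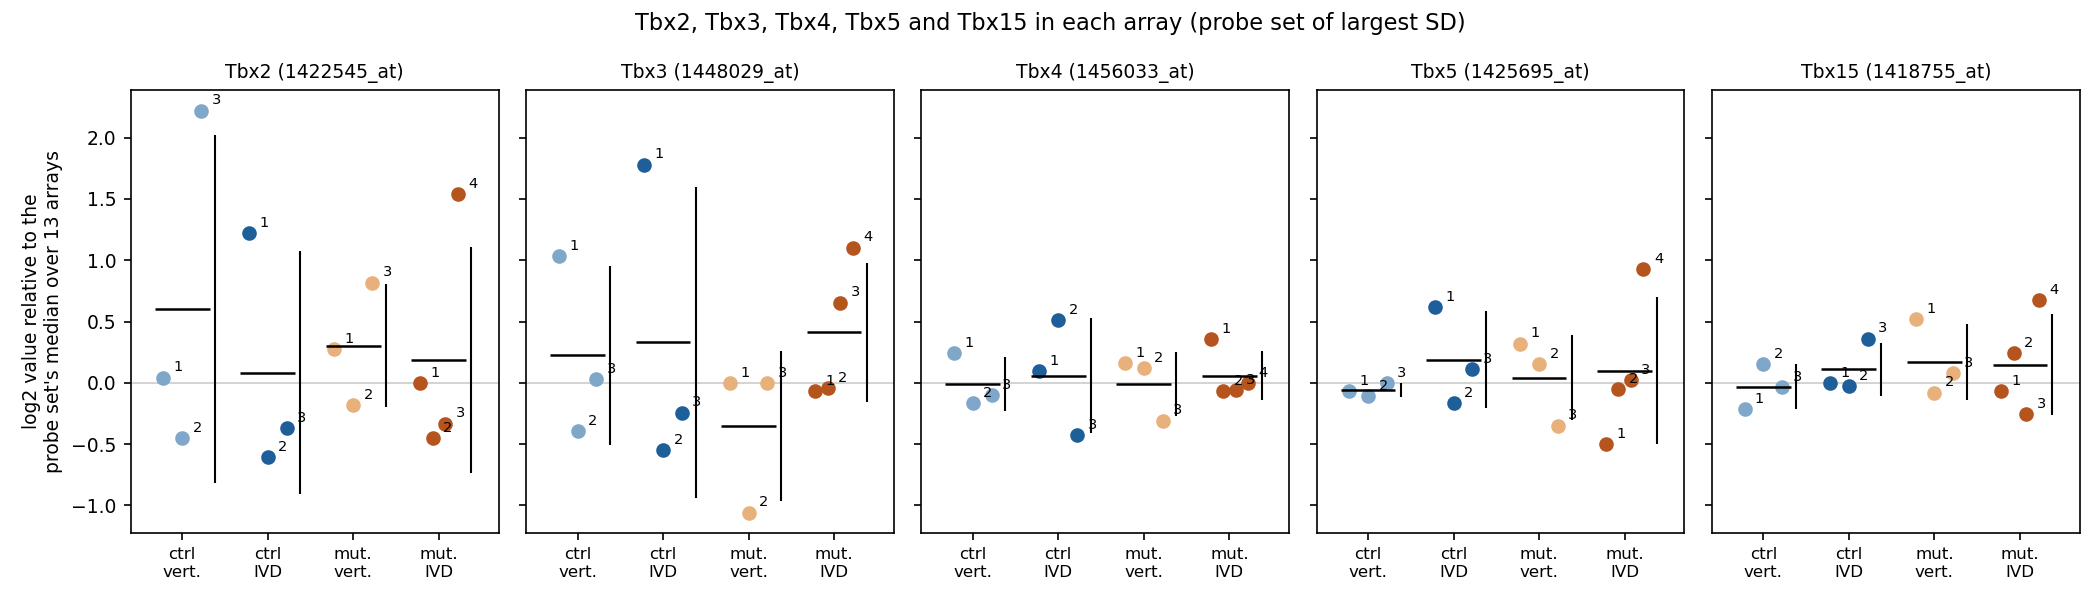
Log2 value in each of 13 arrays of the Tbx2, Tbx3, Tbx4, Tbx5 and Tbx15 probe sets with the largest SD, relative to the probe set's median. Points are arrays with their replicate number, horizontal lines are group means and vertical lines are ±1 SD (ctrl, control; mut., mutant; vert., vertebrae). All 4 groups overlap for each gene, and Tbx2 spans -0.60 to 2.22.

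The Tbx3 probe sets fell into 2 sets. Probe sets 1448029_at, 1437479_x_at and 1445757_at correlated with each other (r = 0.79 to 0.82 over 13 arrays), as did 1439567_at and 1444594_at (r = 0.82), whereas r between the sets was -0.44 to -0.12. These arrays share groups and tissue admixture, and the values are a description. The most variable, 1448029_at, was at 1.03, -0.39 and 0.03 in control vertebrae, 1.78, -0.55 and -0.24 in control IVD, 0.00, -1.06 and 0.00 in mutant vertebrae, and -0.07, -0.05, 0.65 and 1.10 in mutant IVD. Its 4 highest arrays were the 4 with liver transcripts. Probe set 1445757_at had the same 4 highest arrays (0.71, 0.62, 0.40 and 0.32), and 1437479_x_at was high in 3 of them (0.88, 0.70 and 0.87) but not in mutant IVD 3 (-0.04). In 1439567_at and 1444594_at the highest array was mutant vertebrae 1 (0.74 and 1.01). Neither 1439567_at nor 1444594_at was high in control vertebrae 1 or control IVD 1, the arrays with the highest liver means. Tbx3 is expressed in embryonic liver, but the 4 arrays with liver transcripts also had the highest means of erythroid genes. Beyond the differences given below without these arrays, the part of liver or erythroid transcripts in the Tbx3 values was not tested.

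**Figure D3:**
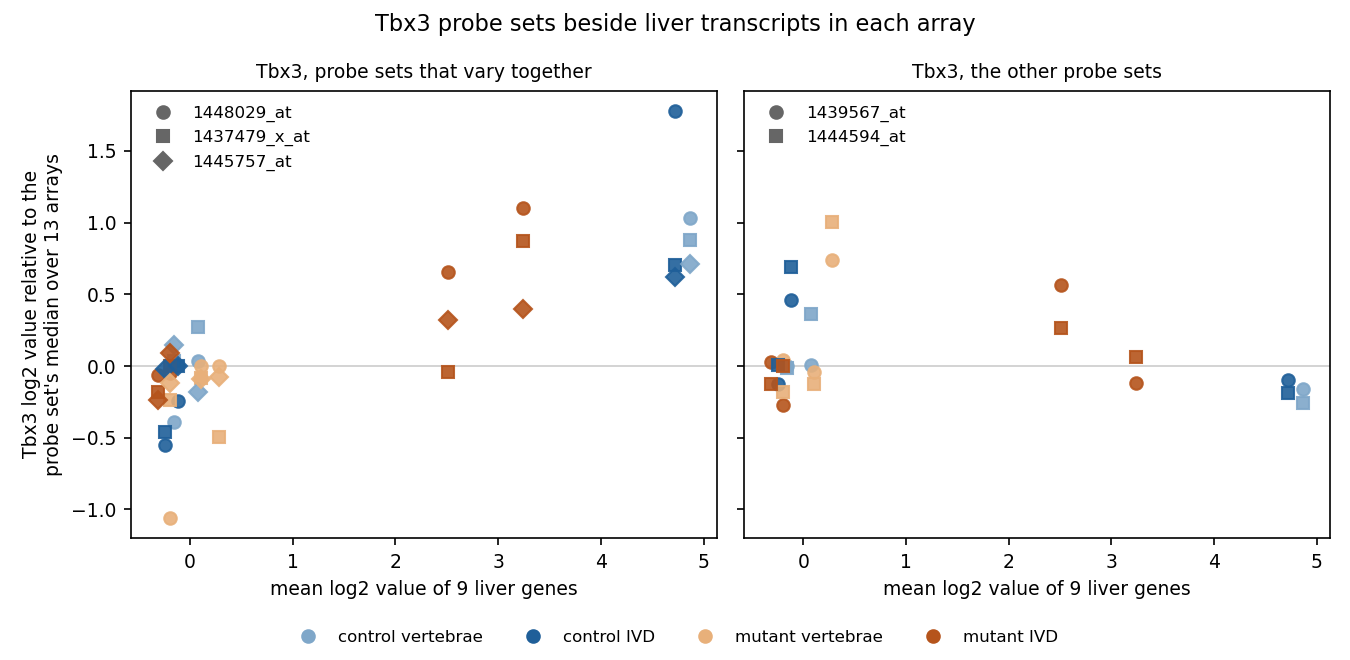
Log2 value of the 5 Tbx3 probe sets (vertical axis) against the mean log2 value of the 9 genes of the liver list, Trh among them (horizontal axis). Points are arrays, coloured by group, with 1 symbol per probe set. On the left, 1448029_at is at 0.65 to 1.78 in the 4 arrays with a liver mean of 2.51 or more, and on the right neither probe set is high in the arrays with the 2 highest liver means.

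Between genotypes, Tbx3 1448029_at differed by 0.08 in IVD (95% interval -1.12 to 1.29) and by -0.58 in vertebrae (95% interval -1.86 to 0.71). The mutant vertebrae held no array with high liver transcripts. The vertebral difference was -0.17 without the 4 arrays with liver transcripts and likewise without control vertebrae 1 alone, -0.22 without mutant vertebrae 2, -0.89 without control vertebrae 2, -0.14 with Y-linked genes as a covariate and -0.21 as the mean of all 5 probe sets. Mutant IVD minus mutant vertebrae was 0.76 (95% interval -0.44 to 1.97), and it was 0.30 without the 4 arrays with liver transcripts, 0.41 without mutant vertebrae 2, 0.50 with the neuronal mean as a covariate and 0.21 as the mean of all 5 probe sets. Probe set 1437479_x_at was lower in all mutant vertebrae arrays (-0.49, -0.23 and -0.09) than in all control vertebrae arrays (0.88, 0.04 and 0.27), with a difference of -0.67 (SE 0.34, 95% interval -1.41 to 0.08; limma, adjusted p = 0.998). Of all probe sets, 1.93% lay lower in mutant than in control vertebrae without overlap.

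Over the family, 0 of the member probe sets tested passed an adjusted p under 0.05 in limma in any comparison. The tests covered 15 probe sets, or 14 where Tbx1 carried no test. The background was itself 0% of 45037 probe sets between control tissues, between mutant and control IVD, between mutant and control vertebrae and for the difference in effect, and 0.0155% (7 probe sets) between mutant IVD and mutant vertebrae. At an unadjusted p under 0.05 limma took 1 member, Tbx1, of 15 between control tissues, where 2.45% of all probe sets passed (1105), and 1, again Tbx1, of 15 between mutant and control vertebrae, where 2.61% passed (1177). It took 0 of the 14 members tested between mutant and control IVD (3.13% of all, 1411), 0 of 15 between mutant IVD and mutant vertebrae (8.07%, 3634) and 0 of 14 for the difference in effect (1.37%, 619). The unequal variance test of the methods called 0 after adjustment in each of the 4 comparisons between groups, with 1094, 1404, 614 and 1877 of all probe sets at an unadjusted p under 0.05. Among the members tested these held Tbx1 between control tissues, Tbx18 1449871_at between mutant and control IVD, Tbx1 between mutant and control vertebrae and 0 between mutant tissues. With control arrays alone and the array number as a random replicate block, 0.0933% of probe sets (42) were called between disc and vertebrae and 0 of 15 members. Tbx1 then had an adjusted p of 0.237 in limma. Control IVD is 1 of the groups on which Tbx1 was picked, and the choice favoured low values there. The passes and p of Tbx1 between control tissues are therefore a description.

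The median difference of the 15 probe sets was 0.08 between control tissues (9 higher, 6 lower in disc), 0.04 between mutant and control IVD (10 higher, 5 lower), 0.10 between mutant and control vertebrae (9 higher, 6 lower) and -0.01 between mutant tissues (7 higher, 8 lower). The medians of all probe sets were -0.02, 0.05, 0.05 and -0.02. The median SD over arrays was 0.32 for members and 0.34 for all probe sets. Without Tbx1 the median between mutant and control IVD was 0.03. Tbx1 in mutant against control IVD was the only difference of a member of at least 2-fold in any of these comparisons. Nothing is read from this, since Tbx1 was chosen for that difference.

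**Figure D4:**
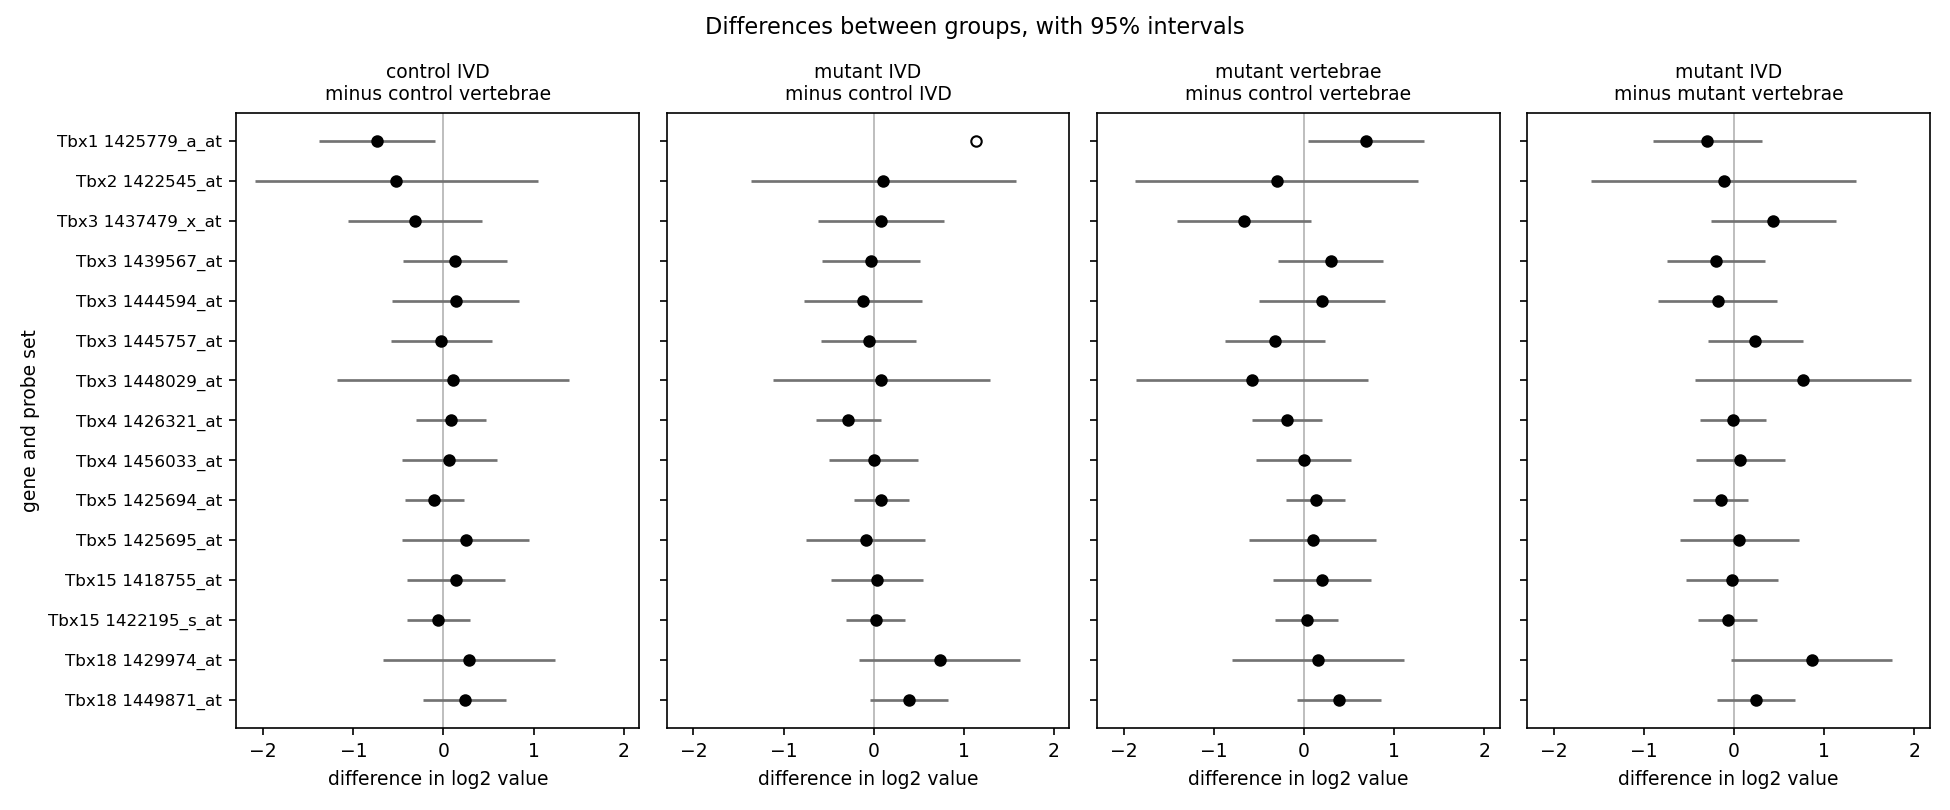
Difference in log2 value (horizontal axis) for each of the 15 member probe sets (vertical axis) in 4 comparisons, with 95% intervals from limma. The open circle, without interval, is Tbx1 in the comparison on which it was chosen (1.14). The other interval ends clear of 0 belong to Tbx1, between control tissues (-1.38 to -0.10) and between mutant and control vertebrae (0.05 to 1.34). Control IVD is 1 of the groups on which Tbx1 was chosen.

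Of the other T-box family genes, 8 of 10 were measured (Tbx6, Tbx19, Tbx20, Tbx21, Tbx22, Tbr1, Eomes and Mga), and 0 of 8 had an unadjusted p under 0.05 in limma in any comparison. In mutant IVD all 8 were lower than in mutant vertebrae (median difference -0.16), where 50.1% of all genes were higher. The control tissues were alike in this, with 7 of 8 lower in disc (median -0.07), where 47.8% of all genes were higher. In mutant vertebrae 1, the array that stood apart, 5 of these genes had their highest value, with Eomes at 1.12. The part of this array in the difference between mutant tissues was not tested.

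Genes that work with T-box factors were described by count over gene means, and 0 of any list passed an adjusted p under 0.05 in limma. Over all 18193 genes 0.0275% (5) passed between mutant tissues and 0% in the other comparisons. At an unadjusted p under 0.05 the shares of all genes were 2.68% between control tissues, 3.01% between mutant and control IVD, 2.52% between mutant and control vertebrae, 8.09% between mutant tissues and 1.40% for the difference in effect. Between mutant and control IVD 58.2% of all genes were higher, with a median difference of 0.04. In the same comparison 12 of 12 neuronal markers (median 0.81) and 8 of 9 endothelial markers (median 0.31) were higher, and their part in the list counts was not tested.

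Of 21 genes measured that are placed upstream or downstream of Tbx1, 13 were higher in mutant IVD (median 0.12) and 0 had an unadjusted p under 0.05 there. Foxa2, a forkhead factor upstream of Tbx1, differed by -1.48 (SE 0.42) between disc and vertebrae of controls and by -1.13 (SE 0.42) between mutant and control vertebrae. Foxa2 is also a notochord gene, and of the notochord markers 5 of 7 were higher in control disc than in its vertebrae (median 0.16). Krt19, another of them, differed by 1.03 (SE 0.45) there and by 1.09 (SE 0.45) between mutant and control vertebrae, both opposite in sign to Foxa2. The BMP antagonist Chrd and the retinoic acid hydroxylase Cyp26b1 differed by 0.93 (SE 0.34) and 0.96 (SE 0.39) between disc and vertebrae of mutants. Eya1, a transcriptional co-activator, differed by -0.69 (SE 0.31) between the control tissues.

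Among 10 measured partners of Tbx15 and Tbx18, 9 were higher in mutant than in control IVD (median 0.20), and 2 of them had an unadjusted p under 0.05, the Groucho-type co-repressors Tle2 (0.94, SE 0.32) and Tle3 (0.71, SE 0.25). Between disc and vertebrae of controls Tle2 differed by -0.94 (SE 0.34), and Gli3, an effector of hedgehog signalling, differed by 0.66 (SE 0.23) between those of mutants. Pax1, a sclerotome and disc gene, differed by 1.13 (SE 0.52) between the control tissues and by 1.47 (SE 0.49) between the mutant tissues.

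Among 17 somite patterning genes, 15 were higher in mutant IVD (median 0.11). At an unadjusted p under 0.05 were Tcf15, a somite transcription factor (0.46, SE 0.15), and the Notch ligand Dll3 (0.48, SE 0.20), which is named after its value was seen. The somite and sclerotome genes Meox1 and Pax9 differed by 0.61 (SE 0.16) and 0.90 (SE 0.38) between disc and vertebrae of mutants. Among 14 limb field genes around Tbx4 and Tbx5, 11 were higher in mutant IVD (median 0.21), and 1 had an unadjusted p under 0.05, the posterior Hox gene Hoxc10 (1.65, SE 0.42). Hoxc10 and Pdlim7 differed by 1.42 (SE 0.42) and 0.52 (SE 0.22) between the mutant tissues, and the limb mesenchyme gene Prrx1 by -0.55 (SE 0.25) between the control tissues.

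Of 6 measured genes repressed by Tbx2 or Tbx3, 3 were higher and 3 lower in mutant IVD (median 0.00). Between disc and vertebrae of controls the cell cycle inhibitor Cdkn1a differed by 0.81 (SE 0.28) and Nppa, an atrial peptide hormone, by -0.39 (SE 0.18).

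The genes whose pattern over the 13 arrays was most like that of Tbx1 were Bcl9, a β-catenin co-activator (r = 0.94), Tle2 (r = 0.91) and Abca9, an ABC transporter (r = 0.91). They were picked for likeness out of all named genes, and their arrays share the same groups. Bcl9 was at -0.51, -0.53 and -0.47 in control IVD, and at 0.25, -0.41, 0.14 and 0.45 in mutant IVD. Mutant IVD 2, the low array of Tbx1, was thus the low array of Bcl9, as it was of Tle2 (-0.56) and Abca9 (-0.13). For Tbx3 the most similar genes were 1300017J02Rik, Mgst3 and Pklr (r = 0.92 to 0.93), and Pklr, the pyruvate kinase of liver and red cells, was highest in the 4 arrays with liver transcripts (0.57 to 1.42). For Tbx18 they were Kank4, Mpped2 and S100pbp (r = 0.88 to 0.89), for Tbx2 Cxcr4, Smpx and Rai2 (0.85 to 0.89), for Tbx5 Fam162b, Tex13a and Ldb3 (0.89 to 0.92), for Tbx15 Gjd4, Krt88 and Zfp352 (0.90 to 0.92), and for Tbx4 Gins3, Unc119b and Dnajc14 (0.82 to 0.85).

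Between members, patterns over the arrays were weakly alike. Each gene was taken here by its most variable probe set, whereas the likeness above used the mean of all its probe sets. Of the 21 pairs of genes r lay between -0.29 and 0.56, the highest being Tbx5 with Tbx15. Tbx1 had r of at most 0.15 with any other member. The probe sets of Tbx3, of Tbx4 and of Tbx5 disagreed among themselves, so these r hold for the chosen probe sets only. The neighbouring genes Tbx2 and Tbx4, with no protein-coding gene between them, had r = -0.17, and the neighbours Tbx3 and Tbx5 had r = 0.54.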

How the data were processed

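RNA (50 ng per sample) was amplified in 2 cycles and hybridised to 13 mouse expression arrays. The authors computed log2 values by RMA in GeneSpring and deposited them relative to the median of each probe set, which was 0 for all 45101 probe sets. Genome build is not given in the sources used here, and precision is limited by the number of arrays. Members and lists were chosen with earlier results of these data known. Gene symbols came from the platform annotation (34945 probe sets with 1 symbol, 932 with several, 9160 with none).

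A model of the 4 groups was fitted to 45037 probe sets (64 controls left out) with limma 3.58.1 in R 4.3.3. Tests were two-sided with Benjamini-Hochberg adjustment over all probe sets. The script was tested on simulated data. Lists used the mean of a gene's probe sets. Values in every array are given for Tbx1, for members with an unadjusted p under 0.05 and otherwise for each member's most variable probe set. Listed genes are named at an unadjusted p under 0.05, at most 4 a list, and 3 genes are named for likeness.

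The model had no pairing. Both control tissues came from 1 set of mice, although the sources do not say which arrays belong to 1 animal. The methods describe vertebrae collected next to the discs in control and mutant embryos alike, so the mutant tissues may share embryos too. Same-numbered control arrays correlated after removal of group means with r = 0.80, 0.57 and 0.57 (mutants -0.40, 0.24 and -0.15), and were taken as pairs only in alternative fits. Alternatives were the 2 groups alone, the unequal variance test, replicate blocks, quantile normalization, robust variance, array weights, covariates, and leaving out arrays.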

Additional observations from a re-analysis of the deposited data

Results flagged for a closer look

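In 14 probe sets (Tbx1, picked on its mutant IVD values, was not examined), the 4 mutant IVD arrays were examined for 1 array far from the rest, by its gap to the nearest array divided by the range of the group, which has a 95% limit of 0.829 for 4 arrays. Chance gives about 1 in 20, and 2 of 14 passed it. For Tbx3 1437479_x_at, mutant IVD 4 was the highest, at 0.87 (0.830), in an array with liver and muscle transcripts. For Tbx4 1456033_at, mutant IVD 1 was the highest, at 0.36 (0.844).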

How the results depend on the processing

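The count of members called, leaving out Tbx1 where it carried no test, stayed at 0 in all 5 comparisons under 120 alternatives. The 12 single probe set differences followed were those of Tbx1 and those of at least 0.5 in a member's most variable probe set. Of their 286 alternatives, many could not change the direction, since they alter only the spread or leave out an array of another group. The direction was kept in 284, a count that was largely fixed in advance. The exceptions were both for Tbx2 in control IVD minus control vertebrae (-0.52), which became 0.29 without control vertebrae 3 and likewise without the 2 arrays with neuronal transcripts, and ranged from -1.09 to 0.29 when arrays were left out singly. For Tbx1, control IVD minus control vertebrae ranged from -0.89 to -0.57, mutant minus control IVD from 0.96 to 1.42, mutant minus control vertebrae from 0.54 to 0.87 (limma, adjusted p at least 0.841), mutant IVD minus mutant vertebrae from -0.54 to -0.01 and the difference in effect from 0.27 to 0.73. For Tbx3 1448029_at, mutant minus control vertebrae (-0.58) ranged from -0.89 to -0.14 and mutant IVD minus mutant vertebrae (0.76) from 0.21 to 0.94. With the array number as a replicate block, Tbx1 between control tissues differed by -0.74 with an adjusted p in limma of 1 over all arrays, 0.237 in control arrays alone as a random block, and 0.303 there as a fixed block, an alternative chosen after seeing the data. The block changed no call of a member. Over all probe sets, the calls between control tissues went from 0 to 42 with the random and 32 with the fixed block in control arrays alone. Between mutant tissues 7 were called, and 0 to 177 when arrays were left out singly, 55 with array weights, 90 with the neuronal mean as a covariate, 157 without the arrays with neuronal transcripts and 29 without those with liver transcripts. A filter on dim probe sets was not possible, since centred values hold no level.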
